A study of Mus musculus with 8 samples.

Results

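Kap, Acsm2, Acsm3, Nudt19 and Gusb are 5 genes known to be expressed in the proximal tubule of the mouse kidney and to respond to androgen there. They were taken by symbol from the deposited gene count tables, as 5 of 22609 genes, and all 5 were among the 13944 genes with enough counts to be tested. They were chosen by their counts in these same 8 libraries, with their lower values in aged mice already known, so that difference is described for them without a test. The libraries came from the kidney cortex of 4 aged and 4 young mice, each sequenced as a library of its own. All 8 mice were male, C57BL6 and untreated, and the labels give an age of 30 months for the aged and of about 5 months for the young mice, while the methods of the study give a somewhat higher mean age for the aged group. No mouse was female or treated with hormone, so the comparison is one of age in males and holds no measurement of androgen. Libraries held 14820804 to 19821429 gene counts, and a count of 3, taken as the floor, corresponded to 0.151 to 0.202 CPM (counts-per-million, which for all other values were also scaled by TMM). Aged mouse 1 stood apart from the other mice, at -71.5 on the first principal component of all genes against -16.3 to 26.2 for the other 7, and that component held 48.1% of the variance. The log2 fold change and the spread of each member are therefore also given without this mouse. Other values include it unless stated.

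The proximal tubule reabsorbs most of what the glomerulus filters and is the main site of androgen action in the mouse kidney. Testosterone, or the dihydrotestosterone made from it by 5-alpha reductases, changes transcription in these cells through response elements near the target genes. Many genes of the mouse proximal tubule therefore differ between males and females. Kap, kidney androgen-regulated protein, is a secreted protein of this segment and a classical readout of androgen in the mouse kidney. Acsm2 and Acsm3 are mitochondrial synthetases that join medium-chain acids to coenzyme A. Nudt19 is a peroxisomal hydrolase that cleaves coenzyme A, and Gusb is beta-glucuronidase, a lysosomal enzyme of glycosaminoglycan breakdown that was long studied for its induction by androgen in the mouse kidney.

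In the mm9 build Kap lies on chromosome 6 at 133799873 to 133803685 (minus strand, 4 exons) and Gusb on chromosome 5 at 130464881 to 130478919 (minus strand, 12 exons). The other members are all on chromosome 7. Acsm2 lies at 126697983 to 126740115 (plus strand, 14 exons), Acsm3 at 126904437 to 126931027 (plus strand, 17 exons) and Nudt19 at 36332204 to 36341323 (minus strand, 3 exons). Acsm2 and Acsm3 belong to one cluster of related genes, in which Acsm5, Acsm1 and Acsm4 also lie, and their coding sequences were 63.8% identical over 1728 aligned bases. No transcript of the 5 members had another place in the genome with at least 98% identity over 100 bases. Acsm3 overlaps Eri2 on the opposite strand, and the counting used strand.

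RefSeq promoter sequences (from the GRCm38.p6 table, 250 bases before to 50 bases after the start) were found for all 5 members, as 6 promoters since Acsm2 has 2, and each matched mm9 exactly once. Those of Kap (chr6:133803636-133803935, minus strand), Acsm2 (chr7:126697604-126697903, plus strand, the upstream one) and Acsm3 (chr7:126904187-126904486, plus strand) are printed 5' to 3', Kap because it was the most abundant member, and the other two because they are related genes with unequal differences between the groups. Capitals mark the TATA box and the hexamer of the androgen response element, which consists of a pair of such hexamers.
Kap: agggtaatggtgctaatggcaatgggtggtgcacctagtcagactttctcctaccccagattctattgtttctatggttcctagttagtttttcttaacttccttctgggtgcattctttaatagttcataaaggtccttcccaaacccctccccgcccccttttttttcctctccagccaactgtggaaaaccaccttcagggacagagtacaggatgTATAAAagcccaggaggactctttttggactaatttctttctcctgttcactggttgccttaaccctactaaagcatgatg
Acsm2: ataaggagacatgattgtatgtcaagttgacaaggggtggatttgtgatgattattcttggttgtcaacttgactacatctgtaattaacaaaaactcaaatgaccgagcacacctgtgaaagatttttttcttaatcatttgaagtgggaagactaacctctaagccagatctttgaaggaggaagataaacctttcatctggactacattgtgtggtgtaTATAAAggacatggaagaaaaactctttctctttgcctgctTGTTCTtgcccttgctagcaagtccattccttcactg
Acsm3: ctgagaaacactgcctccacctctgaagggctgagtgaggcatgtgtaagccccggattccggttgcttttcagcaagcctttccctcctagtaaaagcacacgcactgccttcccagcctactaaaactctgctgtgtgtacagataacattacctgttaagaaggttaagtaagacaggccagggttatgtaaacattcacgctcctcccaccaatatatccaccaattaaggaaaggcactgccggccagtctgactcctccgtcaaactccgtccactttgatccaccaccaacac
The hexamer AGAACA, or TGTTCT on the other strand, was in 1 of the 6 promoters, that of Acsm2 at 13 bases after the start, and in 19.0% of all 32851 promoters of this length. TATAAA, a motif added after the values were seen and searched on both strands, was in the promoters of Kap (at -31) and Acsm2 (at -28) and in 13.6% of all promoters. The full palindromic androgen response element and the HNF1 element were in none of the 6. The HNF4 element CAAAGTCCA was found with 1 letter changed in the Nudt19 promoter, as in 8.47% of all promoters. These are matches of letters and not binding sites, and this window does not hold the distal elements of a gene.

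Kap was lower in every aged mouse than in any young mouse. It stood at 929, 4838, 4020 and 14297 CPM in aged mice 1 to 4 and at 20177, 18460, 18484 and 24978 CPM in young mice 1 to 4. The aged values thus reached from far under the young level in mouse 1 to near it in mouse 4, and the highest aged value was 0.774 times the lowest young one. The means were 6021 ± 5768 CPM in aged and 20525 ± 3076 CPM in young mice (SD, n = 4 each), a log2 fold change of -1.77 (SE 0.65), or 3.41-fold lower. It was -2.65 without aged mouse 4 and -1.41 without aged mouse 1. In young mice Kap ranked between 1 and 3 of all genes by CPM, and it took 1.76% to 2.38% of all gene counts. In aged mice 4, 2, 3 and 1 it ranked 3, 9, 10 and 66. Its share was 1.40% in aged mouse 4 (95% Clopper-Pearson interval 1.40% to 1.41%) and 0.0995% in aged mouse 1 (0.0981% to 0.101%), intervals that cover counting error only and are far narrower than the gap between mice. In RNA from whole cortex, fewer cells of a type and less RNA per cell cannot be told apart.

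**Figure D1:**
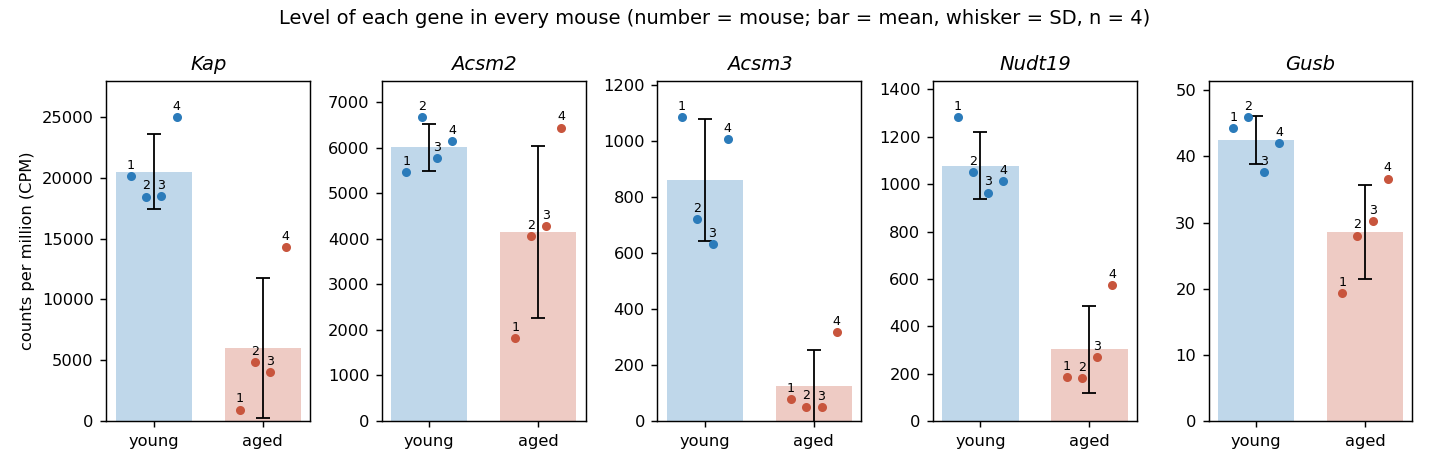
CPM of each of the 5 genes (linear axes from 0) in the 4 young and 4 aged mice, with each point numbered by mouse, bars for the group mean and whiskers for the SD, cut at 0 for Acsm3. Aged mouse 4 is the highest aged mouse in every panel, and the groups overlap for Acsm2, where it reaches 6446 CPM.

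The 2 acyl-CoA synthetases differed by unequal amounts. Acsm2 stood at 1826, 4060, 4280 and 6446 CPM in aged mice 1 to 4 and at 5464, 6671, 5778 and 6150 CPM in the young mice. Aged mouse 4 lay within the young range and the other 3 under it, so the groups overlapped. The means were 4153 ± 1888 and 6016 ± 519 CPM (SD, n = 4 each), a log2 fold change of -0.53 (SE 0.32). Without aged mouse 1 it was -0.29 and without aged mouse 4 it was -0.83.

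Acsm3 had the largest fold difference of the 5. It stood at 77.5, 50.8, 49.2 and 316 CPM in aged mice 1 to 4 and at 1083, 721, 632 and 1006 CPM in the young mice. No aged mouse reached the young range, and the highest aged value was 0.500 times the lowest young one. The means were 123 ± 129 and 861 ± 218 CPM (SD, n = 4 each), a log2 fold change of -2.80 (SE 0.62), or 6.97-fold lower. The log2 fold change was -3.86 without aged mouse 4 and -2.63 without aged mouse 1. Aged mice 2 and 3 were the lowest here, whereas aged mouse 1 was the lowest for Kap, Acsm2 and Gusb. The ratio of Acsm2 to Acsm3, each per transcript length, was 6.27 to 11.5 in young mice and 25.4 to 108 in aged mice, so it was higher in every aged mouse. It was 25.4 in aged mouse 4, the aged mouse nearest to the young ones.

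Nudt19 stood at 186, 181, 268 and 573 CPM in aged mice 1 to 4 and at 1282, 1052, 964 and 1011 CPM in the young mice. The groups did not overlap, and all aged mice but mouse 4 were at or under 24.9% of the young mean. The means were 302 ± 185 and 1077 ± 141 CPM (SD, n = 4 each), a log2 fold change of -1.83 (SE 0.36), or 3.57-fold lower. The log2 fold change was -2.35 without aged mouse 4 and -1.66 without aged mouse 1.

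Gusb, the least abundant member, stood at 19.3, 28.0, 30.2 and 36.7 CPM in aged mice 1 to 4 and at 44.3, 45.9, 37.7 and 42.1 CPM in the young mice. The groups did not overlap, by a narrow margin, since the highest aged value was 0.973 times the lowest young one. Those 2 libraries held 673 and 554 Gusb counts. Their shares of all gene counts were 0.00360% (95% Clopper-Pearson interval 0.00333% to 0.00388%) and 0.00366% (0.00336% to 0.00397%), so the 2 mice could not be told apart at this depth. The means were 28.6 ± 7.15 and 42.5 ± 3.58 CPM (SD, n = 4 each), a log2 fold change of -0.57 (SE 0.17), or 1.49-fold lower. The log2 fold change was -0.72 without aged mouse 4 and -0.42 without aged mouse 1.

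Acsm3 and Nudt19, 2 of the 5 members, passed the criteria used for all genes, an adjusted p below 0.05 in edgeR and a fold change above 1.5, which 2.06% of the 13944 genes tested passed in either direction and 0.889% with lower values in aged mice. In 4 of the 5 every aged mouse was below every young mouse, as in 10% of all genes. A log2 fold change at or below that of Kap was found in 0.394% of all genes. Since this contrast was known when the members were picked, nothing is read from these counts. Which members passed depended on single mice. Without aged mouse 4 it was Kap, Acsm3, Nudt19 and Gusb, without aged mouse 1 it was Nudt19 alone, and without any other single mouse it was none. The log2 fold change of each member was below 0 in all 17 alternative analyses.

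The 5 genes differed more between aged mice than between young mice. The coefficient of variation over the aged mice was 95.8% for Kap, 45.5% for Acsm2, 105% for Acsm3, 61.1% for Nudt19 and 25.0% for Gusb, beside a median of 17.2% over all genes tested. Over the young mice it was 15.0%, 8.63%, 25.3%, 13.1% and 8.42% in the same order, beside a median of 8.48%. Kap spanned 15.4-fold among aged and 1.35-fold among young mice. Aged mouse 4 was the highest of the aged mice for all 5 genes, at 69.7% of the young mean for Kap, 107% for Acsm2, 36.7% for Acsm3, 53.1% for Nudt19 and 86.3% for Gusb. Aged mouse 1 was at 4.53%, 30.4%, 9.01%, 17.3% and 45.5% of the young mean. Without aged mouse 1, a comparison added after the data were seen, the coefficient of variation over aged mice 2 to 4 was 74.0% for Kap, 26.8% for Acsm2, 111% for Acsm3, 60.3% for Nudt19 and 14.2% for Gusb, beside a median of 12.8% over all genes tested. Kap then spanned 3.56-fold.

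**Figure D2:**
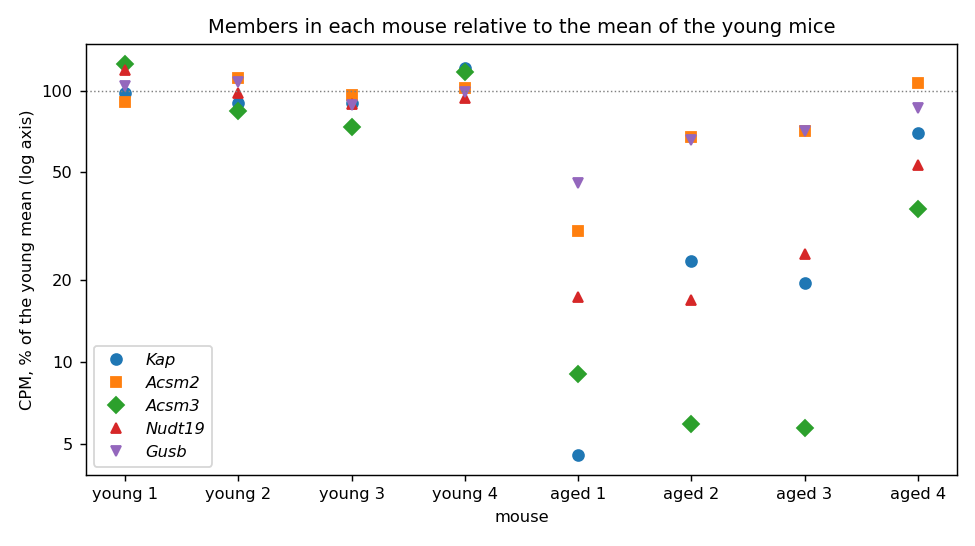
CPM of each gene in each mouse as a percentage of the mean of the 4 young mice, on a log axis, with the dotted line at 100%. The aged mice spread from 4.53% (Kap in mouse 1) to 107% (Acsm2 in mouse 4), and the young mice stay between 73.5% and 126%.

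Some members followed each other more closely than others across the mice. Over the 8 mice, log2 CPM of Kap correlated with that of Gusb (r = 0.969) and of Acsm2 (r = 0.951), and Acsm3 correlated with Nudt19 (r = 0.974). After each group's mean was subtracted, these were 0.926, 0.966 and 0.864. Kap with Acsm3 gave 0.848 over the 8 mice and 0.576 within groups, and Acsm2 with Acsm3 gave 0.675 and 0.437. Nudt19 gave 0.900 over the 8 mice and 0.760 within groups against Kap, 0.910 and 0.772 against Gusb, and 0.772 and 0.709 against Acsm2. These correlations describe genes measured in the same 8 libraries, aged mouse 1 among them, and carry no test.

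Per transcript length, as CPM per kilobase of transcript (FPKM), the order of the levels in young mice was Kap (33757 ± 5059), Acsm2 (2271 ± 196), Nudt19 (469 ± 61.3), Acsm3 (261 ± 66.1) and Gusb (15.8 ± 1.33). No 2 neighbours in this order overlapped among the young mice. In aged mice the order of the means was the same, with Kap at 9903 ± 9487, Acsm2 at 1568 ± 713, Nudt19 at 131 ± 80.3, Acsm3 at 37.5 ± 39.2 and Gusb at 10.6 ± 2.66 (SD, n = 4 in each group). There the ranges of Kap and Acsm2 overlapped, as did those of Nudt19 and Acsm3. The ratio of Kap to Acsm2 within a mouse was 12.1 to 17.7 in the young and 2.22 to 9.66 in the aged mice, and that of Kap to Gusb 1777 to 2625 and 212 to 1723.

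**Figure D3:**
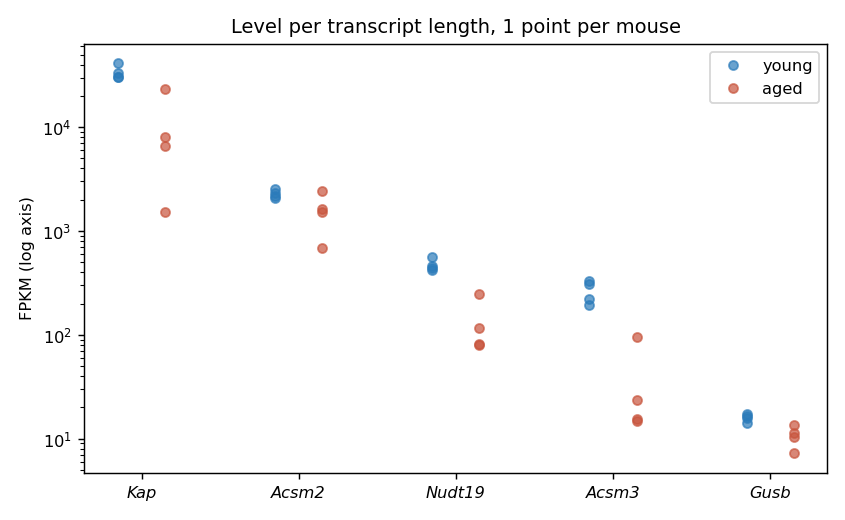
Level of the 5 genes per transcript length (FPKM, log axis), one point per mouse, young mice at the left and aged mice at the right of each gene. The order from Kap to Gusb is the same in both groups, while the aged points of Kap span 1528 to 23514 FPKM.

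The cortex held the proximal tubule's own markers in every mouse. The summed level of 10 markers of its S1 and S2 segments, such as the endocytic receptor Lrp2, was 12339 CPM in aged mouse 1, 23159 to 25985 CPM in aged mice 2 to 4 and 22376 to 27182 CPM in young mice. Of these 10, 0 were called by edgeR. At an unadjusted p below 0.05, 1 was lower and 1 higher, where 12.1% of all genes tested were lower. Relative to this sum the log2 difference was -2.08 for Kap, -0.40 for Acsm2, -2.98 for Acsm3, -1.73 for Nudt19 and -0.34 for Gusb. On that scale the groups did not overlap for Kap, Acsm3 and Nudt19, and they overlapped for Acsm2 and Gusb. The summed level of 6 markers of the S3 segment was 1018 to 3335 CPM in aged and 3809 to 5276 CPM in young mice, lower in every aged mouse, and highest among the aged in mouse 4. Of these 6, 0 were called by edgeR, and 4 were lower at an unadjusted p below 0.05, where 12.1% of all genes tested were. For 3 of the 6 every aged mouse was below every young mouse, which held for 10% of all genes. The groups overlapped for Slc5a10 (log2 fold change -0.16, adjusted p = 0.844) and Slco1a6 (log2 fold change -0.33, adjusted p = 0.375). Atp11a had the highest mean of the 6 in both groups (757 CPM in aged and 2839 CPM in young mice) and so weighed most in the sum. The phospholipid flippase Atp11a was at 318, 608, 370 and 1733 CPM in aged mice 1 to 4 and at 2152 to 3332 CPM in the young (log2 fold change -1.91, SE 0.51, adjusted p = 0.0732). The anion transporter Slc22a7, at 0.688 to 22.3 CPM in aged and 47.0 to 162 CPM in young mice, had an adjusted p of 0.0615. One of the S3 markers, Slc7a13, is also in the male-biased list described further on. The part of segment composition in the members' values was not tested.

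The summed markers of 6 other cell classes overlapped between the groups. They were 3399 to 5463 CPM in aged and 4902 to 7403 CPM in young mice for the thick ascending limb, and 1382 to 1754 and 1117 to 1792 CPM for the distal convoluted tubule. Those of the collecting duct were 312 to 470 and 325 to 386 CPM, and those of podocytes 314 to 610 and 434 to 530 CPM. Endothelial markers summed to 341 to 511 and 405 to 446 CPM, and markers of macrophages and lymphocytes to 171 to 262 and 137 to 189 CPM. In each of these classes edgeR called 0 genes, and 2, 3, 0, 0, 1 and 1 genes of the lists had an unadjusted p below 0.05, in the same order. Lower at that p were 2, 1, 0, 0, 1 and 0 of them, beside 12.1% of all genes tested. Negative log2 fold changes were found for 5 of 5, 2 of 4, 6 of 7, 1 of 5, 1 of 5 and 0 of 6 genes, again in that order. In the distal convoluted tubule list Slc12a3 was higher and Calb1 lower in every aged mouse than in any young one.

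**Figure D4:**
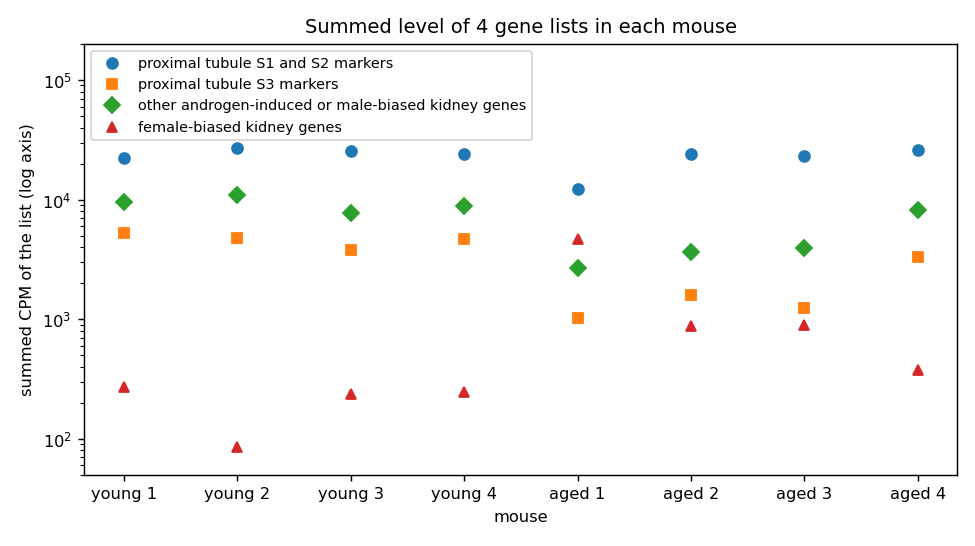
Summed CPM of 4 gene lists in each mouse on a log axis, with the S1 and S2 and the S3 markers of the proximal tubule, the male-biased and the female-biased genes. The S3 sum is lower in every aged mouse (1018 to 3335 against 3809 to 5276 CPM), while aged mice 2 to 4 lie in the young range for the S1 and S2 sum.

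Of the 16 genes listed as chaperones and co-regulators of steroid hormone signalling, 2 were called lower by edgeR, as were 0.889% of all genes tested. Both encode the Hsp90 chaperone. Hsp90aa1 was at 112, 187, 230 and 147 CPM in aged and at 366, 319, 360 and 417 CPM in young mice, and its log2 fold change was -1.11 (SE 0.20, adjusted p = 0.0361). Hsp90ab1 was at 728, 1061, 1168 and 974 CPM in aged and at 1554, 1560, 1498 and 1808 CPM in young mice, with a log2 fold change of -0.71 (SE 0.15, adjusted p = 0.0483). In both genes the groups did not overlap, and aged mouse 4 was not the highest of the aged mice. Both calls were lost without aged mouse 2 or without any 1 young mouse, and that of Hsp90ab1 also without aged mouse 3 and in 11 of 16 alternatives in all, with an adjusted p of up to 0.145.

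Among enzymes that make or inactivate androgens, 13 of 23 listed genes were tested and 0 were called by edgeR. At an unadjusted p below 0.05, 4 of the 13 were lower, as were 12.1% of all genes tested. DESeq2 and limma-voom each called 1, lower, where they called 2.78% and 1.76% of all genes lower. Among these 13, Cyp7b1 is also in the male-biased list described further on. Srd5a2, the 5-alpha reductase type that makes dihydrotestosterone in the prostate, was low throughout, at 2.4 to 9.3 CPM in aged and 6.9 to 16.7 CPM in young mice (log2 fold change -1.05, SE 0.44, adjusted p = 0.177). For Srd5a1, the other main reductase, the log2 fold change was -0.18 (SE 0.29, adjusted p = 0.722). Cyp7b1, a steroid hydroxylase that also clears androgen metabolites, was at 15.0, 15.4, 2.94 and 37.4 CPM in aged and at 215, 35.8, 76.2 and 207 CPM in young mice. Only aged mouse 4 and young mouse 2 overlapped, and the log2 fold change was -2.92 (SE 0.76, adjusted p = 0.0693). Hsd17b4, a peroxisomal dehydrogenase, had the highest mean of the list over all 8 mice, at 263 to 464 CPM in aged and 260 to 291 CPM in young mice. Hsd17b12 had a log2 fold change of -0.26 (SE 0.08, adjusted p = 0.0935).

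A further list of genes known as androgen-induced or male-biased in the mouse kidney mostly had lower values in aged mice, without passing the test. Of the 14 tested, 13 had a negative log2 fold change, the median was -1.15 beside 0.03 over all genes, and 0 were called by edgeR. At an unadjusted p below 0.05, 9 of the 14 were lower and 0 higher, where 12.1% of all genes tested were lower at that p. DESeq2 called 4 and limma-voom 3, and edgeR without aged mouse 4 called 10, all lower, where these called 2.78%, 1.76% and 2.87% of all genes lower. This list, like the others, was chosen with earlier results of these data known, so its counts are description only. The sum over the list was 2665, 3647, 3952 and 8111 CPM in aged mice 1 to 4 and 7738 to 10968 CPM in young mice. Of the aged mice, mouse 4 alone lay in the young range, as it did for Acsm2 but not for the other members. Odc1, ornithine decarboxylase of polyamine synthesis and a long-known androgen target, was at 93.5, 190, 149 and 372 CPM in aged and at 967, 1147, 459 and 258 CPM in young mice. Young mouse 4, the highest of all mice for Kap, was the lowest young mouse for Odc1. The log2 fold change of Odc1 was -1.81 (SE 0.54, adjusted p = 0.0898), and 1 near-identical copy of its transcript lies elsewhere in the genome, so its counts are uncertain. Adh1, an alcohol dehydrogenase, was at 161, 190, 175 and 345 CPM in aged and at 576, 676, 388 and 387 CPM in young mice, which did not overlap (log2 fold change -1.22, SE 0.28, adjusted p = 0.0542). Cyp4b1, a cytochrome P450 and the most abundant of the list, was at 1080, 1602, 1851 and 3021 CPM in aged and at 2885, 3843, 2762 and 3166 CPM in young mice (log2 fold change -0.74, SE 0.28, adjusted p = 0.149). Ces1e, a carboxylesterase outside the list, was 94.3 ± 19.4 CPM in aged and 100.4 ± 15.4 CPM in young mice (SD, n = 4 each) and had a log2 fold change of -0.09 (SE 0.16, adjusted p = 0.750).

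**Figure D5:**
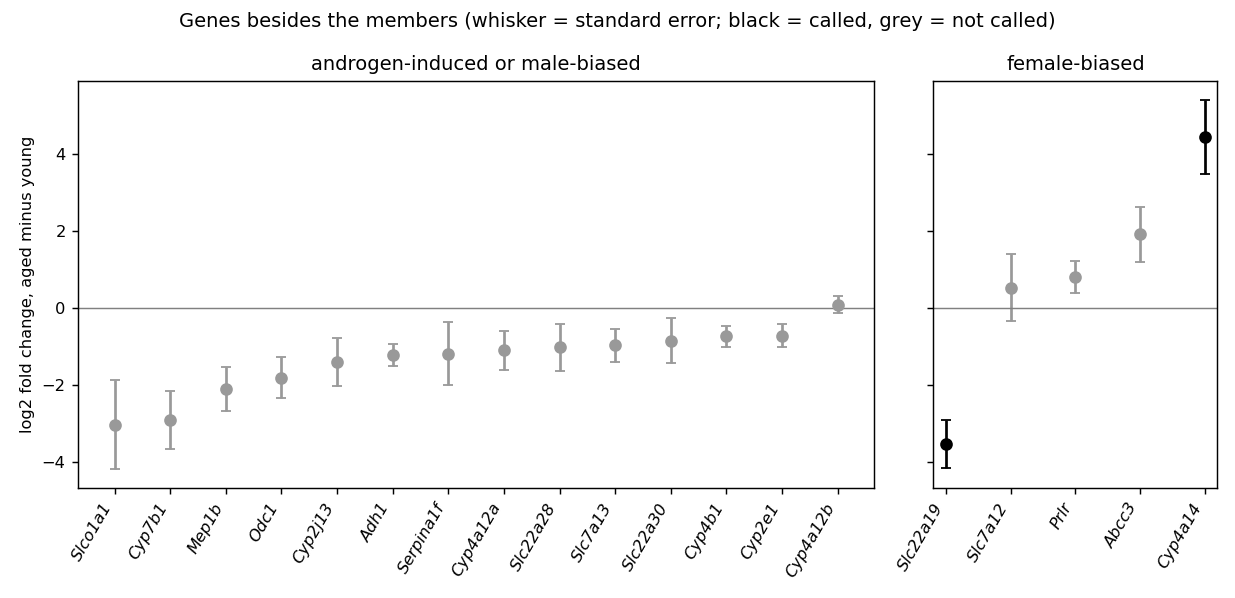
Log2 fold change (aged minus young) of 14 androgen-induced or male-biased genes and 5 female-biased genes, one point per gene with its standard error. Of the 14, 13 lie below 0 and none is black (called), while of the 5 only Cyp4a14 (4.44) and Slc22a19 (-3.55) are.

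Of 5 genes listed as female-biased in the mouse kidney, 4 had a positive log2 fold change, with a median of 0.81 beside 0.03 over all genes. By edgeR 1 was called higher and 1 lower, where 2.06% of all genes were called in either direction and 0.889% lower. At an unadjusted p below 0.05, 2 were higher and 1 lower, where 12.1% of all genes tested were lower. Cyp4a14, a fatty acid hydroxylase also induced by PPAR-alpha, was at 4509, 676, 847 and 309 CPM in aged mice 1 to 4 and at 73.5, 13.6, 116 and 88.9 CPM in young mice. It was higher in every aged mouse, and the order of the aged mice was the reverse of that for Kap at both ends, with mouse 1 highest and mouse 4 lowest. Its log2 fold change was 4.44 (SE 0.97, adjusted p = 0.0483), and 3.07 to 4.79 over 16 alternatives. Slc22a19, an organic anion transporter, was at 2.26, 7.29, 2.14 and 12.1 CPM in aged and at 98, 28.6, 53.0 and 97.3 CPM in young mice, a log2 fold change of -3.55 (SE 0.62, adjusted p = 0.0323). Its direction was thus that of the 5 members and not that of Cyp4a14. Both calls were lost without aged mouse 2, aged mouse 3 or any 1 young mouse, with an adjusted p of up to 0.14 for Cyp4a14 and 0.103 for Slc22a19.

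None of the other genes listed for the members' enzyme families was called by edgeR. Of the 4 other genes of medium-chain acyl-CoA synthesis and glycine conjugation tested, 0 were called by edgeR. All 4 had a negative log2 fold change, and the median was -0.49 beside 0.03 over all genes. At an unadjusted p below 0.05, 2 were lower, where 12.1% of all genes tested were lower. DESeq2 and limma-voom each called 1, lower, where they called 2.78% and 1.76% of all genes lower. Acsm1, which lies between Acsm2 and Acsm3, was at 43.5, 121, 81.8 and 75.1 CPM in aged and at 138, 160, 162 and 170 CPM in young mice (log2 fold change -0.97, SE 0.25, adjusted p = 0.0694). Glyat, which joins glycine to acyl groups, had a log2 fold change of -0.26 (SE 0.22, adjusted p = 0.466), and for the related Gm4952 it was -0.73 (SE 0.31, adjusted p = 0.182).

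Besides Nudt19, 12 genes of coenzyme A synthesis and breakdown were tested and 0 were called by edgeR, with a median log2 fold change of -0.09. At an unadjusted p below 0.05, 4 were lower, where 12.1% of all genes tested were lower. DESeq2 called 0 and limma-voom 1, lower, where they called 2.78% and 1.76% of all genes lower. Ppcs, which takes part in the synthesis, was at 22.1, 18.3, 24.6 and 22.8 CPM in aged and at 29.7 to 30.9 CPM in young mice. Its adjusted p was 0.0460, but its log2 fold change of -0.46 (SE 0.10) was under the fold threshold. For Coasy, the last enzyme of the pathway, it was -0.54 (SE 0.16, adjusted p = 0.0898), and for the kinase Pank1 -0.57 (SE 0.27, adjusted p = 0.219).

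Besides Gusb, 20 lysosomal glycosidases and enzymes of glycosaminoglycan breakdown were tested and 0 were called by edgeR. DESeq2 called 2 and limma-voom 1, all lower, where they called 2.78% and 1.76% of all genes lower. At an unadjusted p below 0.05, 3 were lower and 3 higher, where 12.1% of all genes tested were lower. The median log2 fold change was 0.02. Glb1, beta-galactosidase, was at 51.7, 100.4, 90.8 and 147 CPM in aged and at 169 to 180 CPM in young mice (log2 fold change -0.85, SE 0.26, adjusted p = 0.0926). Neu1, a sialidase, had the highest mean of the list over all 8 mice and had a log2 fold change of -0.16 (SE 0.30, adjusted p = 0.765).

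The genes most like each member were sought by the correlation of log2 CPM over the 8 mice, among 9702 genes with a mean of at least 10 CPM. For Kap they were BC026585 and Glb1 (r = 0.997 each), the anion transporter Slc17a3, the glycosyltransferase Ugt3a2 (r = 0.996 each) and Gatad1 (r = 0.995). Within groups these 5 kept r of 0.990 to 0.994, and without aged mice 1 and 3, the 2 mice farthest from the median, r was 0.980 to 0.988 (n = 6). Their log2 fold changes were -0.46 to -1.25 and none of them passed the test. For Acsm2 the genes were Ccdc90a, Pcca, a subunit of propionyl-CoA carboxylase, and Slc25a13, a mitochondrial carrier, with r of 0.990 to 0.995. For Gusb they were the fucosidase Fuca2, Edem1 of protein quality control in the endoplasmic reticulum, and Entpd4, with r of 0.988 to 0.989. For Acsm3 they were the transporter Slco3a1 (r = 0.994), the sodium pump subunit Atp1b1 (r = 0.990) and the cytokine Il34 (r = 0.988). For Nudt19 they were Sec11a of the signal peptidase (r = 0.990), the myristoyltransferase Nmt1 (r = 0.987) and again Slco3a1 (r = 0.986). Slco3a1 fell from 371 to 181 CPM in the mean (log2 fold change -1.03, SE 0.19, adjusted p = 0.0378) and Sec11a from 91.2 to 54.6 CPM (log2 fold change -0.74, SE 0.16, adjusted p = 0.0461), calls that were lost without aged mouse 2, aged mouse 3 or any 1 young mouse. All points share the 8 libraries, and the correlations carry no test.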

How the data were processed

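RNA from the renal cortex of 4 aged and 4 young mice was freed of ribosomal RNA, made into stranded libraries and sequenced from both ends for 100 bases. Reads were aligned to mm9 with TopHat2 and counted by strand with HTSeq on RefSeq genes, and the authors deposited raw counts per gene in 1 table per mouse. The submitters' notes also name SAMtools and CASAVA 1.8.2. Another table that joins these libraries went unused. Read pairs on no gene made up 20.0% to 29.9% of a library, pairs aligned to several places 34.3% to 39.1% and ambiguous pairs at most 0.346%, and these stayed out of library sizes and tests.

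Counts were analyzed in R 4.3.3 with the quasi-likelihood test of edgeR 4.0.16, with TMM normalization, filterByExpr (minimum count 10) and no covariate. P-values were Benjamini-Hochberg adjusted over 13944 genes, and a call needed an adjusted p below 0.05 with a fold change of more than 1.5. The scripts were tested on simulated data. DESeq2 1.42.0 and limma-voom 3.58.1 were alternatives, with other scalings, filters, a replicate block and leaving out each mouse. Log2 CPM used a prior count of 2. FPKM is CPM per kilobase of the longest coding transcript (GENCODE, mm9). Transcripts and promoters were matched to mm9 with BLAST 2.17.0. The members and the 15 gene lists were chosen with earlier results of these data known. Named genes are the members, Srd5a1, Srd5a2, Odc1, Ces1e, from each list those called, the most abundant and the 2 with the smallest p, and the 3 genes (5 for Kap) most like each member. Some genes that this rule names are not reported here. No set test was run.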

Additional observations from a re-analysis of the deposited data

Results flagged for a closer look

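A mouse was singled out where its gap to the nearest mouse of its group, divided by the range of the group, was above the 95% critical value of Dixon's test for 4 values. Of 152 groups of 4 values examined, 14 met this, where chance gives about 7.6.

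Among the members this was Acsm3, for which aged mouse 4 stood above the other aged mice with a ratio of 0.894 (316 CPM). The same mouse was highest for Adh1 (0.846), Slc22a7 (0.92), Slco3a1 (0.956), Il34 (0.964) and Sec11a (0.834), so it held 6 of the 14. Aged mouse 1 was highest for Hsd17b4 (0.91), for Cyp4a14 (0.872) and for the summed female-biased list (0.881), which Cyp4a14 dominates, and lowest for Calb1 (0.865), a calcium-binding protein of the distal convoluted tubule. Among the young mice, mouse 3 was lowest for Glb1 (0.845) and Fuca2 (0.961), and mouse 4 was highest for Ugt3a2 (0.845) and for the summed list of steroid signalling chaperones and co-regulators (0.849). The genes with aged mouse 4 highest include Slco3a1, Il34 and Sec11a, which were named for their likeness to Acsm3 or Nudt19 and so are not independent of them. What set these mice apart was not tested.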

How the results depend on the processing

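Each member kept a negative log2 fold change in all 17 alternatives, and Acsm3 alone moved by more than the spread between mice, to -3.86 without aged mouse 4 (-3.86 to -2.54 over the mice left out). Leaving out 1 mouse gave -2.65 to -1.41 for Kap, -0.83 to -0.29 for Acsm2, -2.35 to -1.65 for Nudt19 and -0.72 to -0.42 for Gusb. The number of genes called was 287 and depended strongly on the mice, from 8 without young mouse 1 to 733 without aged mouse 4, and was 444 without aged mouse 1. It was 488 with library size only, 873 in DESeq2, 483 in limma-voom and 130 with the replicate block. Library size only moved the median of all genes by 0.11 on the log2 scale and the share of higher calls from 56.8% to 75.4% (368 higher, 120 lower).

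For the steroid signalling chaperones and co-regulators, upper-quartile scaling, library size only, no filter and a minimum of 10 counts in every library each left 1 of 2 calls, the replicate block 0, and leaving out a mouse 0 to 3. For the androgen enzymes DESeq2, limma-voom and no filter gave 1 call and leaving out a mouse 0 to 5. For the male-biased genes library size only gave 1, DESeq2 4, limma-voom 3 and leaving out a mouse 0 to 10. For the female-biased genes the minimum of 10 counts and the replicate block each gave 1, DESeq2 3, and leaving out a mouse 0 to 2. For the acyl-CoA synthetase list DESeq2 and limma-voom gave 1 and leaving out a mouse 0 to 1. For the coenzyme A list limma-voom and the adjusted p alone gave 1 and leaving out a mouse 0 to 1. For the lysosomal list DESeq2 gave 2, limma-voom and the adjusted p alone 1 and leaving out a mouse 0 to 3. Leaving out a mouse also leaves fewer samples, and the cause of these changes was not tested.

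The replicate numbers were shared by the groups, but same-numbered mice deviated together only weakly (correlations 0.206, 0.038, 0.199 and -0.0302). The sample titles give only the number, and these correlations cannot settle whether it pairs the mice. With the replicate block the log2 fold change was -2.29 for Kap, -0.66 for Acsm2, -3.27 for Acsm3, -2.01 for Nudt19 and -0.60 for Gusb, and of the members only Acsm3 was called. No member was called without aged mouse 2, aged mouse 3 or any 1 young mouse, 1 was called without aged mouse 1 and 4 without aged mouse 4. Of the members, depth limits Gusb alone.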
